A study of Mus musculus with 9 samples.

Results

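Crem is the gene of the cAMP response element modulator, and Gem is a known target of the same pathway. The brightest probe set of each roughly doubled in signal when cultured white fat cells were given PTH or PTHrP. The genes of the factors thought to act on them, Creb1 and Atf1, were not called. Not every Crem probe set passed, and the target gene Nfil3 was not called either. These results concern 6 mouse genes: the CREB family genes Crem, Creb1 and Atf1, and the cAMP target genes Gem, Areg and Nfil3. Every probe set that the array's probe table assigns to 1 of these symbols was taken, which gave 12 of 45037 probe sets: 4 for Crem, 6 for Creb1, 1 for Gem and 1 for Nfil3. The only probe set listed for Atf1 is also assigned to its pseudogene Atf1-ps, so it is described apart and not counted among the 12. No probe set is assigned to Areg in that table, and its RNA was not analysed here.

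The cells were primary white adipocytes, grown from the stromal-vascular fraction of the inguinal fat of C57BL6 males 30 to 35 days old. All groups were differentiated alike. For 2 days they had isobutylmethylxanthine at 0.5 µM, dexamethasone and rosiglitazone at 1 µM each and insulin at 5 µg/ml; insulin and rosiglitazone followed, and medium alone from day 6. Isobutylmethylxanthine is an inhibitor of the phosphodiesterases that break down cAMP, and all groups had it; cAMP was not measured in these files. On day 8, 3 samples received PTH(1-34) and 3 received PTHrP(1-34), each at 100 ng/ml for 4 h; 3 samples were controls, whose own treatment, such as a vehicle, the labels leave unstated. RNA was read on 9 Affymetrix arrays, and the labels call the replicates biological without saying whether they were separate mice or cultures, so p-values measure only the spread between these samples.

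PTH and PTHrP act on the same receptor, which couples to Gs and raises cAMP. Protein kinase A then phosphorylates CREB (from Creb1), CREM and ATF1, which bind as dimers of basic leucine zippers to the cAMP response element of target genes and recruit the coactivators CBP and p300. Crem is itself such a target: an internal promoter of the gene yields ICER, a short repressor form that lacks the activating part and closes a negative feedback loop. In fat cells cAMP drives lipolysis and the thermogenic programme, and CREB also takes part in differentiation.

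The element that gives the family its name is shown in the sequence just before a start listed for each of 4 genes. Each sequence is read 5′ to 3′ on the gene's strand, from RefSeq's GRCm38.p6. Areg and Nfil3 are among the listed target genes (the promoters of Gem and Crem were not analysed here), Nr4a3, an orphan nuclear receptor gene, is a known CREB target that rose, and Dusp1, a phosphatase gene, is one that did not pass. Capitals mark each match to the half-site TGACG on either strand; where they run together as TGACGTCA the palindromic full element is present, and it holds a half-site on each strand.
Areg, chr5:91139349-91139598, plus strand: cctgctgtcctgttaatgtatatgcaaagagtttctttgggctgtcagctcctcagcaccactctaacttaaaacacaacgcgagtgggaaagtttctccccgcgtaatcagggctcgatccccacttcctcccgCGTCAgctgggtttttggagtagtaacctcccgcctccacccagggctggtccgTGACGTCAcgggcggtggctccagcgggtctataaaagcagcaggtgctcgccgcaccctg
Nfil3, chr13:52981040-52981289, minus strand: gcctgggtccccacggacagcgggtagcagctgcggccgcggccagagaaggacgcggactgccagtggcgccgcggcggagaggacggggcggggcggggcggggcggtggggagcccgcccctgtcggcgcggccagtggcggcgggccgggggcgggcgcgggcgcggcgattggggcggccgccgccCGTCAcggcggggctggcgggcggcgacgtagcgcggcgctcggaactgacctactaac
Nr4a3, chr4:48045055-48045304, plus strand: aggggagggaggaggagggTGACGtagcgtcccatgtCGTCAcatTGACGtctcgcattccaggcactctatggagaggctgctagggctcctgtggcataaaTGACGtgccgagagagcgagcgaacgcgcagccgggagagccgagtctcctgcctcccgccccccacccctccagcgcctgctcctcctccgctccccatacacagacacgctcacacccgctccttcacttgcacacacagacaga
Dusp1, chr17:26508473-26508722, minus strand: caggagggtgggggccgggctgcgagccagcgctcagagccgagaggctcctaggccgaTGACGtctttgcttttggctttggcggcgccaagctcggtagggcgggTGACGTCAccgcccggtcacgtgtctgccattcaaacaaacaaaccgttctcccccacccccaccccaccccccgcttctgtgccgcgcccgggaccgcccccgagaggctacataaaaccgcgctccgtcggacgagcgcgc
The full element lay at -61 before the Areg start and at -143 before the Dusp1 start, counting the base before the start as -1. Nfil3 held 1 half-site, at -59, and Nr4a3 held 4. The Nfil3 window lies inside the bounds of the gene (chr13:52967209-52982878), so its -59 counts from a start within the gene. Over all 32851 windows of 250 bases in the promoter table, 17.8% held a half-site and 1.55% the full element. The windows of Creb1 and Atf1, not printed, held 0 and 1 half-sites. A match is a match of letters only, and where a factor was bound was not measured.

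Crem was higher with either peptide on its brightest probe set, 1449037_at (Entrez gene 12916). Its signal was 201, 215 and 196 in the control arrays, 387, 401 and 404 with PTH, and 445, 409.5 and 367 with PTHrP. All 6 treated arrays lay above all 3 controls, and the PTH and PTHrP arrays overlapped. The mean went from 204 ± 9.75 (SD, n = 3) to 397 ± 9.04 with PTH (n = 3) and 407 ± 38.9 with PTHrP (n = 3), ratios of means of 1.95 and 2.00. On the scale of log2(intensity + 16), used for every change below and smaller than the ratio at low signal, the change was 0.91 with PTH (SE 0.08, adjusted p = 0.000876, limma) and 0.94 with PTHrP (SE 0.08, adjusted p = 0.000691, limma). In bulk RNA, a change in the number of cells that express a gene and a change in its RNA per cell cannot be told apart.

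The next brightest Crem probe set, 1418322_at, also rose. It read 75.55, 80.3 and 83.15 in controls, 132, 154 and 139.9 with PTH, and 139, 135 and 119 with PTHrP. Again no treated array overlapped the controls. The mean of 79.7 ± 3.84 in controls became 142 ± 11.1 with PTH and 131 ± 10.6 with PTHrP, log2 changes of 0.72 (SE 0.08, adjusted p = 0.00300, limma) and 0.62 (SE 0.08, adjusted p = 0.00590).

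The other Crem probe sets, both dimmer, did not pass. Probe set 1430598_at read 51.4, 38.8 and 37.2 in controls, 52.9, 64.95 and 49.5 with PTH, and 46.4, 42.6 and 39.99 with PTHrP. One control lay within the range of the PTH arrays, and the PTHrP arrays lay within the range of the controls. Its log2 change was 0.30 with PTH (95% interval 0.04 to 0.56, adjusted p = 0.259, limma) and 0.02 with PTHrP (interval -0.24 to 0.28, adjusted p = 0.969).

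Probe set 1430847_a_at read 49.1, 38.3 and 59.9 in controls, 45.6, 39.3 and 49.5 with PTH, and 23.8, 49.6 and 35.7 with PTHrP. Its groups overlapped, and 1 PTHrP array was below the dim level of 29.0, the 40th percentile of mean signal over all probe sets. The log2 change was -0.09 with PTH (interval -0.51 to 0.34, adjusted p = 0.893, limma) and -0.33 with PTHrP (interval -0.75 to 0.09, adjusted p = 0.503). The suffix _a_at is the maker's mark for a probe set that reads several transcripts of 1 gene. The probe sets were not matched to Crem isoforms here, so no value can be assigned to ICER.

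**Figure D1:**
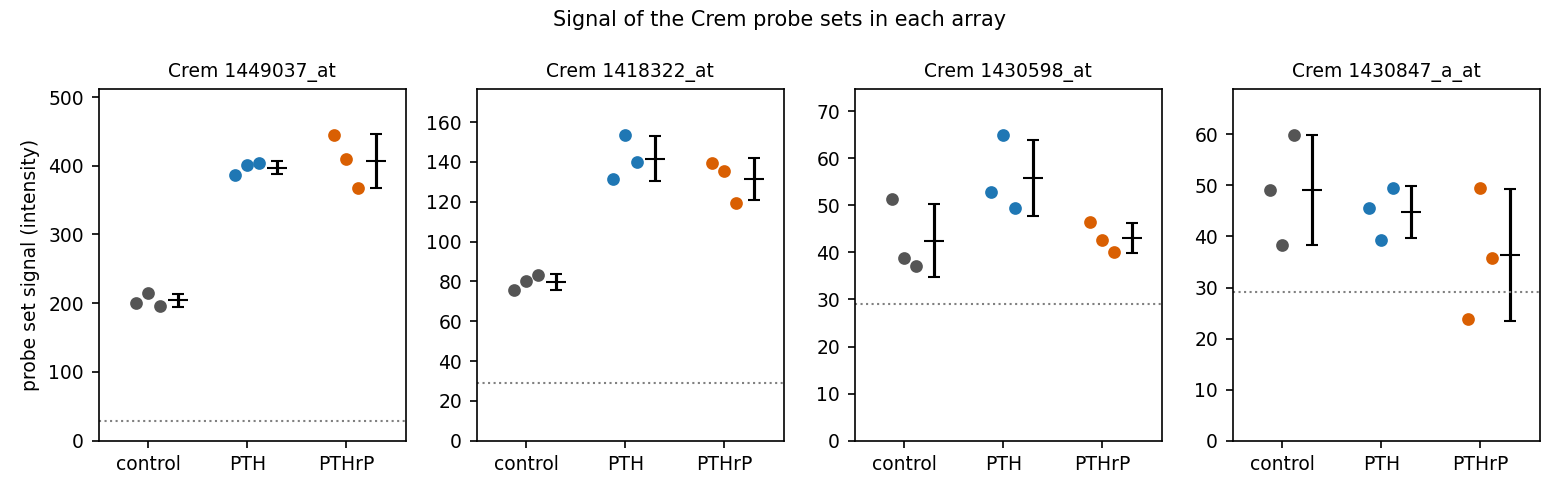
Signal (intensity, linear axes from 0 that differ between panels) of the 4 Crem probe sets, by group; points are arrays, bars the mean ± SD of 3 arrays, and the dotted line the dim level of 29.0. The treated arrays of 1449037_at and 1418322_at all lie above the controls, and those of the other probe sets overlap them.

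Because the Crem probe sets are read on the same arrays, their responses were compared within arrays: the log2 signal of one minus that of another, in the 6 treated against the 3 control arrays. Levels of different probe sets are not comparable, so only the change of their difference was read. Its size is not free of the signal level, because the log2 scale used here is smaller than the ratio at low signal. Of 6 pairs, 5 differed in response by the exact two-sided permutation test, each with p = 0.0119, the smallest that 84 splits allow, and 0.0143 adjusted over the 6 pairs. Probe set 1449037_at rose more than 1418322_at by 0.26 on the log2 scale, more than 1430598_at by 0.77 and more than 1430847_a_at by 1.13. Probe set 1418322_at rose more than 1430598_at by 0.51 and more than 1430847_a_at by 0.88. In these 5 pairs the difference was larger in 6 of 6 treated arrays than in any control.

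The sizes depend on the pseudocount: 1418322_at rose more than 1430847_a_at by 1.05 with 1 and by 0.59 with 64. For the smallest of the differences that passed, the call depended on it too. With 1 in place of 16, 1449037_at exceeded 1418322_at by 0.21 (adjusted p = 0.0571, exact permutation). The dim probe sets differed from each other by 0.37 (exact permutation p = 0.167), with 4 of 6 treated arrays beyond the controls. On this scale the Crem probe sets thus gave no single size of change for the gene. Averaged over its 4 probe sets, Crem was higher by 0.46 with PTH and 0.31 with PTHrP on the log2 scale (adjusted p = 0.00441 and 0.0257, limma).

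**Figure D2:**
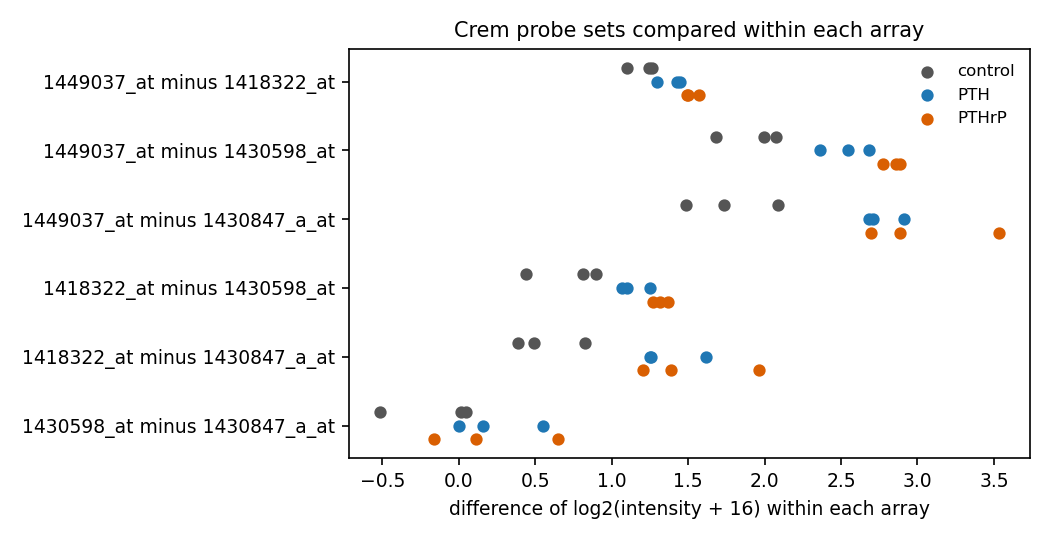
Difference of log2(intensity + 16) between 2 Crem probe sets within each array (x axis), for the 6 pairs (rows); points are arrays, coloured by group. In the first 5 rows all 6 treated arrays lie to the right of the 3 controls, and in the last row 4 of 6 do.

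Gem codes for a small GTPase of the RGK family, which restrains voltage-gated calcium channels and the cytoskeleton. Its probe set 1426063_a_at (Entrez gene 14579) read 51.7, 56.7 and 60.1 in controls, 103.5, 122 and 135 with PTH, and 133.5, 138 and 121 with PTHrP. No treated array came near the controls, while PTH and PTHrP arrays overlapped. The mean of 56.2 ± 4.19 in controls became 120.1 ± 15.7 with PTH and 131 ± 8.55 with PTHrP, ratios of 2.14 and 2.33. The log2 change was 0.91 with PTH (SE 0.09, adjusted p = 0.00240, limma) and 1.02 with PTHrP (SE 0.09, adjusted p = 0.00139). At this low signal the size depends on the pseudocount: it was 1.08 and 1.20 with 1, and 0.61 and 0.70 with 64. Among all 45037 probe sets ordered by log2 change, Gem stood 69th from the top with PTH and 41st with PTHrP, and the brightest Crem probe set 68th and 63rd.

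Nfil3 (E4BP4) codes for a basic leucine zipper repressor with roles in circadian output and in lymphocyte development. Probe set 1418932_at (Entrez gene 18030) read 1090.4, 1146 and 1149 in controls, 1193, 1247 and 1199 with PTH, and 1314, 1288 and 1166.5 with PTHrP. All treated arrays lay above all controls, but by little, and the change did not pass. The mean was 1128 ± 32.9 in controls, 1213 ± 29.7 with PTH and 1256 ± 78.8 with PTHrP. The log2 change was 0.10 with PTH (interval -0.04 to 0.25, adjusted p = 0.527, limma) and 0.15 with PTHrP (interval 0.01 to 0.30, adjusted p = 0.330). A rise as large as that of Gem lies outside both intervals.

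**Figure D3:**
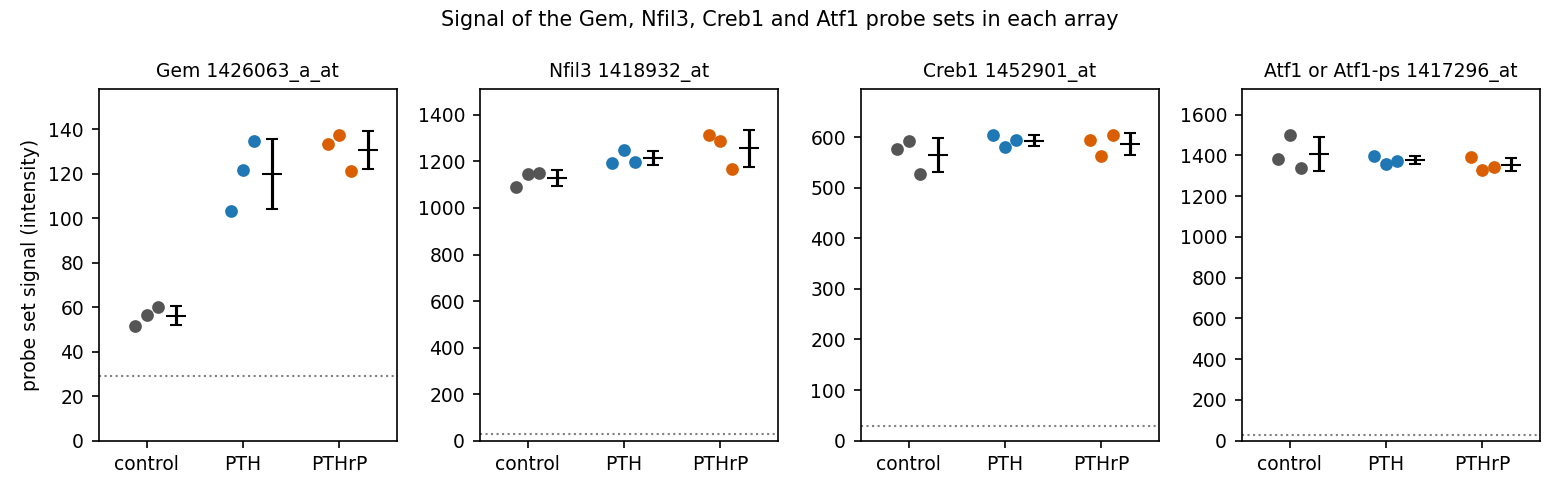
Signal (intensity, linear axes from 0 that differ between panels) of Gem, Nfil3, the brightest Creb1 probe set and the probe set shared by Atf1 and Atf1-ps, by group; points are arrays, bars the mean ± SD of 3 arrays, and the dotted line the dim level of 29.0. The treated Gem arrays (103.5 to 138) stand apart from the controls (51.7 to 60.1), the treated Nfil3 arrays lie just above theirs, and the other panels overlap.

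Creb1 codes for CREB, the activator that PKA phosphorylates; it is switched on as a protein, so its RNA says nothing of its activity. None of its 6 probe sets passed with either peptide. The brightest, 1452901_at (Entrez gene 12912), read 576, 592 and 527 in controls, 604, 581 and 594 with PTH, and 593, 563 and 604 with PTHrP. Its groups overlapped, with log2 changes of 0.07 (interval -0.07 to 0.21, adjusted p = 0.704, limma) and 0.05 (interval -0.09 to 0.20, adjusted p = 0.788).

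Another bright Creb1 probe set, 1428755_at, had changes of 0.10 (interval -0.05 to 0.25) and 0.07 (interval -0.08 to 0.21). These 2 intervals and those of 1452901_at leave room for a rise of no more than 0.25 on the log2 scale. Probe set 1423402_at had 0.07 and -0.02, with all 3 PTH arrays just above the controls and 1 PTHrP array below them. The dimmer ones disagreed in sign: 1421582_a_at had -0.22 and -0.14, and 1452529_a_at had 0.13 and 0.01. Probe set 1421583_at, at 0.22 and 0.09, was below the dim level in all 9 arrays, with a signal of at most 12.35.

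ATF1 is the closest relative of CREB and is phosphorylated by the same kinase. The probe set shared by Atf1 and Atf1-ps, 1417296_at, read 1381, 1501 and 1338 in controls, 1397, 1358 and 1373 with PTH, and 1393, 1328 and 1346 with PTHrP. The groups overlapped, with log2 changes of -0.03 (interval -0.17 to 0.11, adjusted p = 0.888, limma) and -0.05 (interval -0.19 to 0.09, adjusted p = 0.792). Reads of the gene and of its pseudogene cannot be told apart in it.

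**Figure D4:**
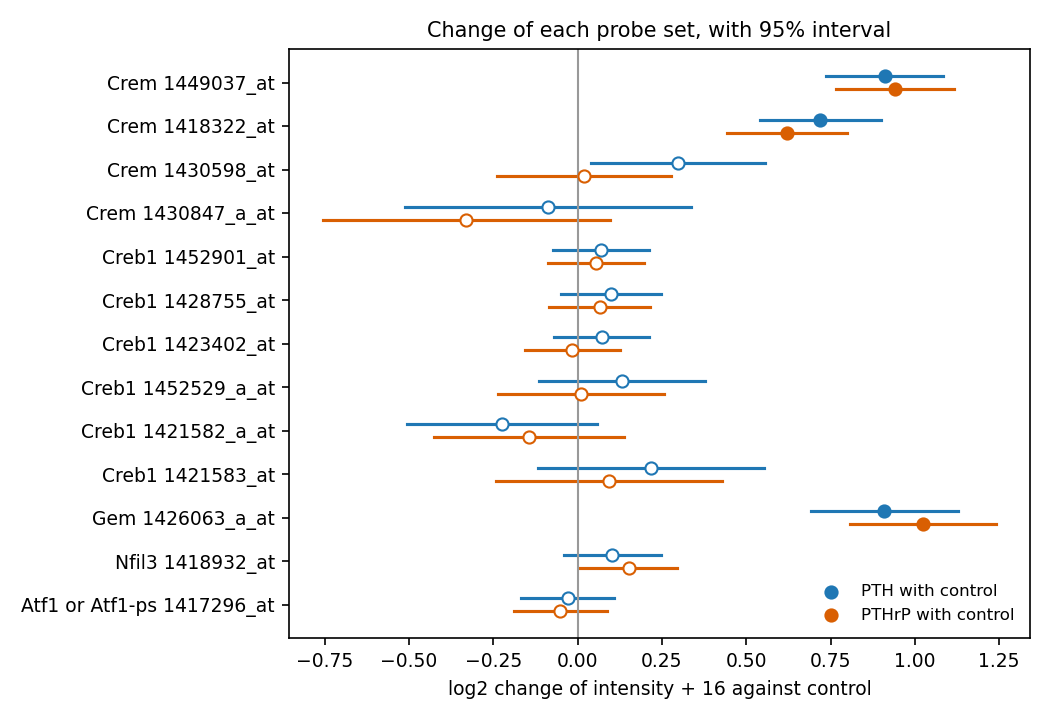
Change of log2(intensity + 16) against control (x axis) of the 12 probe sets and of the shared Atf1 probe set (rows), with 95% intervals from limma; filled points passed at an adjusted p below 0.05, open points did not. The filled points are 1449037_at and 1418322_at of Crem and the Gem probe set, with each peptide.

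Counted together, 3 of the 12 probe sets rose, 0 fell and 9 did not pass with PTH, and the same counts held with PTHrP. Over all probe sets 2.70% passed with PTH (1.34% higher, 1.37% lower) and 2.39% with PTHrP (1.19% higher, 1.20% lower). Probe sets of 1 gene are not independent, so the 3 calls count as 2 genes, Crem and Gem, of 4. The genes were chosen with earlier results of these data known, so these counts cannot show that they respond more often than others. The median log2 change of the 12 was 0.12 with PTH and 0.06 with PTHrP, beside -0.01 and -0.0006 over all probe sets. Both peptides share the control arrays, so these are not independent results. Each of the 3 calls was kept without any 1 array. The highest adjusted p on leaving out an array was 0.0213 with PTH and 0.0316 with PTHrP, both for 1418322_at of Crem (limma).

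PTH and PTHrP were also compared directly, which does not use the controls' means. Of the 12 probe sets 0 passed (adjusted p = 1 for each, limma), as did 0 of the 45037 (0.00%), of which 1911 had an unadjusted p below 0.05. The difference, PTH minus PTHrP, was -0.03 for 1449037_at (interval -0.20 to 0.14), 0.10 for 1418322_at (interval -0.08 to 0.28) and -0.11 for Gem (interval -0.33 to 0.10). With 3 arrays a group, the data leave room for differences within these intervals. The Crem probe set 1430598_at was the 1 member with an unadjusted p below 0.05, higher with PTH by 0.28 (interval 0.02 to 0.54).

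Of 32 other known CREB target genes, each read by its brightest probe set, 7 rose, 4 fell and 21 did not pass with PTH, and 6 rose, 3 fell and 23 did not pass with PTHrP. Over all 18193 genes so read, 1.82% rose and 1.97% fell with PTH, and 1.57% and 1.81% with PTHrP. The list was chosen with earlier results of these data known, so its counts cannot show that targets pass more often than other genes. The list's median log2 change was -0.01 with PTH and -0.03 with PTHrP, beside -0.003 and -0.01 over all genes. Il6, the cytokine gene, went from 454 ± 20.4 in controls to 1140 ± 77.8 with PTH and 1067 ± 30.4 with PTHrP, log2 changes of 1.30 and 1.21. The cAMP phosphodiesterase genes Pde4d (0.97 with PTH and 0.96 with PTHrP) and Pde4b (0.77 and 0.78), which degrade the messenger, and Crispld2 (0.76 and 0.69), coding for a secreted protein, rose as well.

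Nr4a3, whose promoter is shown above, rose from 52.9 ± 5.10 to 114 ± 14.0 and 116 ± 18.4 (0.92 and 0.93), and Pck1, the enzyme gene of glyceroneogenesis, rose by 0.52 and 0.48. Each of them has 2 other probe sets, of which 0 passed with PTH, and neither passed with the mean of its probe sets (adjusted p = 0.0785 and 0.290 with PTH, 0.0523 and 0.408 with PTHrP, limma). Irs2, an insulin receptor substrate gene, rose with PTH (0.56) but not without control replicate 1, 2 or 3 or PTH replicate 2 or 3 (adjusted p = 0.0530 to 0.0835, limma), and had 0.43 with PTHrP (adjusted p = 0.0547). These genes and those in the next paragraph are named because they passed.

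The falls were less firm. Gadd45a (-0.48 with PTH and -0.43 with PTHrP), a stress gene of growth arrest, Cited2 (-0.41 and -0.45), which binds CBP and p300, and Inhba (-0.31 and -0.31), a subunit gene of activin, fell with both peptides. Cited2 and Inhba each have 1 other probe set, which did not pass with either peptide. Neither gene passed with the mean of its probe sets (adjusted p = 0.0820 and 0.0515 with PTH, 0.0912 and 0.0780 with PTHrP, limma). Ppp1r15a, a stress phosphatase subunit gene, fell with PTH (-0.32) and had -0.28 with PTHrP (adjusted p = 0.0803, limma). Inhba did not pass with the arrays centred on their median (adjusted p = 0.0827 with PTH). Of the 32 targets, 0 fell with PTH when control replicate 2 or 3, or any of PTH replicates 1, 2 and 3, was left out, and 2 fell without control replicate 1. With PTHrP 0 fell without control replicate 2 or PTHrP replicate 1, and 1 fell without any other array.

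Several textbook immediate targets did not pass at 4 h on their brightest probe set. Fos (-0.03 with PTH, -0.17 with PTHrP), Nr4a1 (0.04 and 0.11), Nr4a2 (0.02 and -0.06), Per1 (-0.07 and -0.13) and Dusp1 (-0.04 and -0.12) had small changes. Others that did not pass changed more: Junb (0.24 and 0.24), Egr1 (-0.29 and -0.28, adjusted p = 0.0505 and 0.0594, limma) and Fosb (0.47 and 0.24). The Fosb probe set was above the dim level in only 1 array. Other probe sets of genes that did not pass on their brightest went both ways: with each peptide 1 of 5 rose for Nr4a2 and 1 of 4 for Pde10a, while 1 of 1 fell for Klf4 and 1 of 2 for Gadd45b. For Rgs2, 1 of 3 fell with PTH and 2 of 3 with PTHrP. Dusp1, with the full element printed above, went from 932 ± 70.6 in controls to 903 ± 23.8 with PTH and 857 ± 62.4 with PTHrP, and its groups overlapped. Sik1 had 0.45 and 0.38, which did not pass (adjusted p = 0.146 and 0.242, limma).

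Among the targets that rose with PTH, 4 of 7 with a promoter in the table held a half-site (Il6, Nr4a3, Pck1 and Pde4b) and 0 held the full element. Of the 16 with a promoter among those that did not pass, 13 held a half-site and 2 the full element, Dusp1 and Btg2. Of the 4 that fell, 1 held both, Ppp1r15a. By gene, 19.8% of the table's 27025 genes held a half-site in some window. Some genes have several starts and so more than 1 window, and no test was made of these counts.

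**Figure D5:**
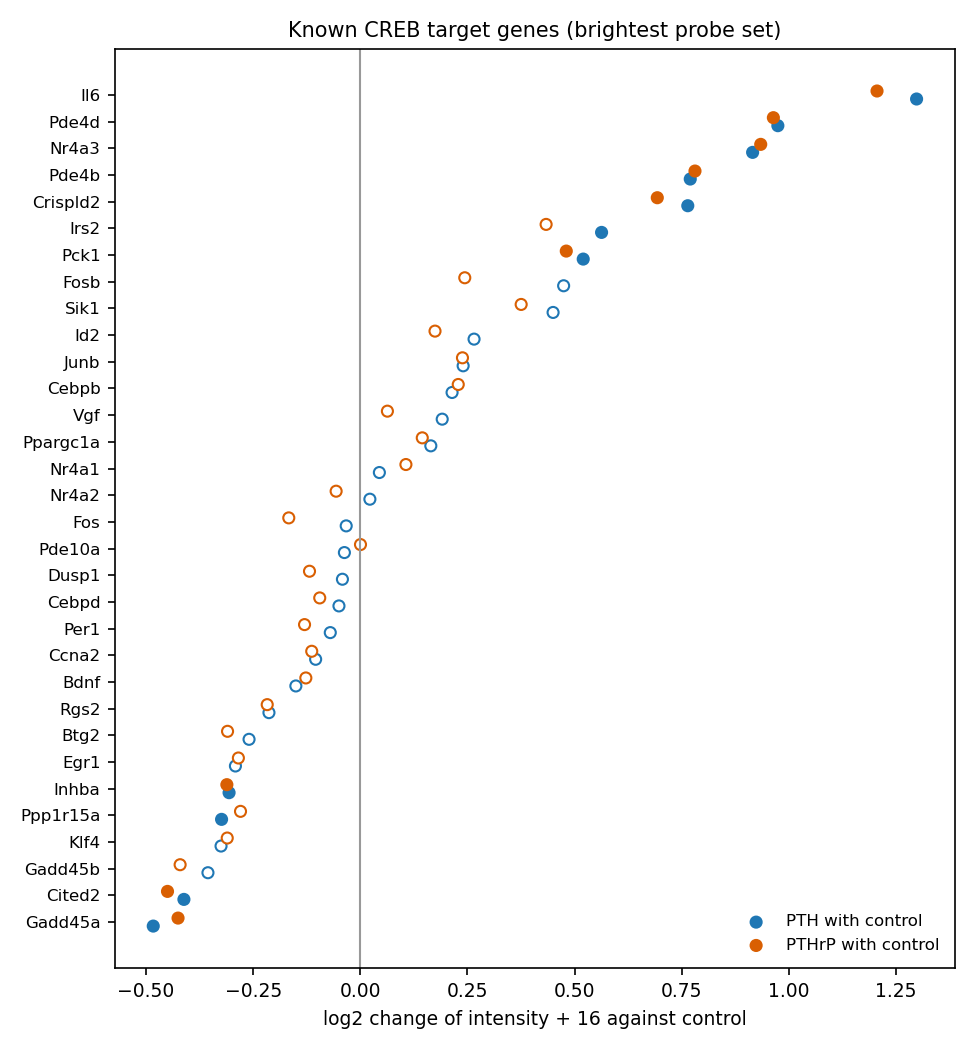
Change of log2(intensity + 16) against control (x axis) of 32 known CREB target genes (rows, ordered by the change with PTH), each by its brightest probe set; filled points passed at an adjusted p below 0.05 over all probe sets, open points did not. Il6, Pde4d, Nr4a3 and Pde4b lie highest with both peptides, and Gadd45a and Cited2 lie lowest.

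The relatives of the 6 genes were read in the same way, by their brightest probe sets. The shares over all genes were again 1.82% higher and 1.97% lower with PTH, and 1.57% and 1.81% with PTHrP. These lists, too, were chosen with earlier results of these data known. Of 16 other CREB and ATF family genes, 0 rose and 1 fell with each peptide: Jdp2, a repressor that pairs with AP-1 and ATF factors, from 1058 ± 33.1 in controls to 709 ± 24.7 with PTH and 701 ± 40.2 with PTHrP (log2 changes -0.57 and -0.58, adjusted p = 0.00326 and 0.00276, limma). Its other probe set did not pass, and neither did their mean (adjusted p = 0.0940 and 0.134). The median log2 change of this family was -0.14 with PTH and -0.15 with PTHrP, beside -0.003 and -0.01 over all genes. None of the CREB coactivator genes Crebbp, Ep300, Crtc1, Crtc2 and Crtc3 passed (changes between -0.17 and 0.11).

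The PAR factor genes Dbp, Tef and Hlf, activators that bind the sites NFIL3 binds, did not pass (0 of 3). Rrad, a close relative of Gem, had changes opposite in sign to those of Gem: it read 66.4 in controls on average, 44.1 with PTH and 39.9 with PTHrP (log2 changes -0.46 and -0.57, adjusted p = 0.105 and 0.0566, limma). The other RGK gene measured, Rem2, was below the dim level in all 9 arrays on its brightest probe set. Its other probe set, dimmer still on average, fell with PTH and not with PTHrP.

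In place of Areg itself, the other genes of its pathway were read. Amphiregulin, its product, is an EGF receptor ligand freed from the membrane by ADAM17. Of 15 EGF family ligands, receptors and processing genes, 1 rose with PTH and 0 with PTHrP, and 0 fell, beside the shares over all genes given above. The 1 was Nrg4, a ligand secreted by fat cells, from 145 ± 7.75 to 191 ± 7.74 (log2 change 0.36, adjusted p = 0.0306, limma), with 0.29 for PTHrP (adjusted p = 0.0767); its other probe set also rose with PTH. The Nrg4 call was lost without any 1 control or PTH array (adjusted p = 0.0601 to 0.128). Egfr had 0.24 and 0.22, Ereg 0.19 and 0.27, and Hbegf 0.04 and -0.02, none of which passed on its brightest probe set, while 1 of 6 other Egfr probe sets rose with PTH. The 1 other probe set of Btc, the ligand betacellulin, fell with PTH.

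Over the 9 arrays, the genes whose pattern was most like that of the brightest Crem probe set were Il33 (Pearson r = 0.996), Bzw1 (0.996), Hsd17b7 (0.995), Pcsk5 (0.995) and Tgm2 (0.994). They came from 23090 probe sets of other genes, each with 1 symbol and a mean signal above the dim level. Il33, an alarmin cytokine gene, read 450.2 ± 1.40 in controls, 957 ± 46.5 with PTH and 1028 ± 128 with PTHrP. The correlation is a description: it follows the step from 3 control to 6 treated arrays, which these genes share, and Tgm2 did not pass with either peptide (adjusted p = 0.0587 and 0.0772, limma). Measured the same way, r with the brightest Crem probe set was 0.98 for Gem, 0.97 for 1418322_at, 0.82 for Nfil3, 0.41 for 1430598_at and -0.47 for 1430847_a_at.

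The arrays had median signals between 48.3 and 52.7. RNA quality was gauged by the actin controls: their 3′ over 5′ signal was 1.45 to 1.51 in controls and 1.52 to 1.65 in treated arrays (exact two-sided permutation p = 0.0119, the smallest possible); it moved with the treatment and so with every call above, and its part in the results was not tested. All 8 adipocyte markers measured, Adipoq and Fabp4 among them, were above the dim level, and 0 of 8 passed with either peptide. For the marker counts here, the shares over all genes were 1.82% higher and 1.97% lower with PTH, and 1.57% and 1.81% with PTHrP. The dim level is the 40th percentile of mean signal over all probe sets, so most probe sets lie above it. Preadipocyte markers were present too: 7 of 7 were above the dim level and 1 fell, Pdgfrb (log2 changes -0.31 and -0.35), whose other probe set fell too. The summed signal of that list was 25616 to 26777 in controls, 24574 to 24792 with PTH and 23770.0 to 26199 with PTHrP, and its part in the results was not tested. With PTH the Pdgfrb call was lost without any 1 control or PTH array or without PTHrP replicate 1 (adjusted p = 0.0540 to 0.131, limma), and with PTHrP without any 1 control array, PTHrP replicate 1 or PTHrP replicate 3 (0.0560 to 0.0797). In controls 5 of 8 macrophage markers were above the dim level (Itgam, Mrc1 and Cd163 were not), 3 of 6 endothelial, 2 of 6 mast cell, 1 of 5 epithelial and 0 of 6 lymphocyte markers, and 0 of these passed with either peptide on their brightest probe set. Of the 2 other probe sets of the macrophage marker Csf1r, 1 rose with each peptide. The summed macrophage signal was 1022 to 1132 in controls, 1099 to 1253 with PTH and 1088 to 1219 with PTHrP, and its part in the results was not tested. The summed endothelial signal was 273 to 324 in controls, 216 to 256 with PTH and 229 to 310 with PTHrP, and its part in the results was not tested.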

How the data were processed

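RNA of 9 samples, 3 per group, was read on Affymetrix arrays as biotin-labelled cRNA, per the labels' protocols. The deposited values are 1 intensity per probe set and array; the labels do not state how the authors summarised and scaled them, and the linear scale was taken from their range (highest value per array 17113 to 18614). Precision is limited by the number of arrays. Of 45101 probe sets, 64 array controls were left out; 34945 had 1 gene symbol, 932 several and 9160 none. Values were taken as log2(intensity + 16) and every probe set was fitted with limma 3.58.1 in R 4.3.3, with a mean per group and empirical Bayes variance, tested two-sided, with Benjamini-Hochberg adjustment over all probe sets and a threshold of 0.05. For gene lists, a gene was read by its brightest probe set, with symbols updated through Entrez numbers. Crem probe sets and the actin ratio were compared by exact permutation. The steps were tested on simulated data. Plots used Python 3.11.15 and matplotlib 3.10.9.

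All probe sets of the 6 genes are named, list genes where they passed or are textbook targets, and the 5 probe sets most correlated with Crem. The members and the lists were chosen with earlier results of these data known. The alternatives were other normalizations, a filter on dim probe sets, 1 value per gene, other pseudocounts, variances and weights, the replicate number as a block, each array left out, fits of 2 groups and a threshold of 0.01. Same-numbered arrays were not taken as pairs.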

Additional observations from a re-analysis of the deposited data

How the results depend on the processing

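The 3 calls among the members (2 probe sets of Crem and that of Gem) held with each peptide under every alternative run for them, leaving out 1 array included, and 0 member probe sets passed between the peptides. Replicate numbers did not pair the arrays (9 correlations of deviations from -0.20 to 0.17); the fit with the replicate block called 3 member probe sets with each peptide, 518 probe sets in all with PTH and 467 with PTHrP, and 0 CREB targets that fell with either.

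Counts over all probe sets and of CREB targets were added after the data were seen. With PTH, the 1217 probe sets called became 2231 with the lowest 40% of signals left out, 2214 with pseudocount 64, 2611 with a trended and robust variance, 695 with only the 2 groups compared and 380 at a threshold of 0.01. With PTHrP, the 1076 became 1998, 1996, 2375, 365 and 364. Without 1 array they ranged from 398 to 1090 and from 468 to 795. The CREB targets that fell with PTH became 8, 8, 9, 2 and 0 under these settings, 2 with median centring and 1 with pseudocount 1. With PTHrP they became 9, 9, 9, 0 and 0, 8 with only the brightest probe set of each gene adjusted and 5 with the mean of probe sets. Without 1 array they ranged from 0 to 4 with PTH and from 0 to 1 with PTHrP.

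The response of Crem 1449037_at over 1418322_at became 0.21 with pseudocount 1, no longer past the threshold. Without 1 array the 6 Crem pairs, in the order given in the results, ranged from 0.20 to 0.29, 0.65 to 0.84, 0.99 to 1.29, 0.37 to 0.60, 0.78 to 1.01 and 0.19 to 0.47.

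Signs turned only among member values that did not pass. PTH minus PTHrP for Crem became 0.15 with the mean of its probe sets. Without 1 array it ranged from -0.10 to 0.033 for Crem 1449037_at, from -0.014 to 0.036 for Creb1 1452901_at and from -0.16 to 0.014 for Creb1 1421582_a_at. The change with PTH of Crem 1430847_a_at ranged from -0.21 to 0.029. The changes with PTHrP ranged from -0.044 to 0.13 for Crem 1430598_at, -0.046 to 0.032 for Creb1 1423402_at, -0.083 to 0.095 for Creb1 1452529_a_at and -0.078 to 0.21 for Creb1 1421583_at. The causes were not tested. Signals near or below the dim level limit what the dim probe sets can show.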
